A study of Mus musculus with 8 samples.

Results

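The members described here are 9 genes through which B cells read BAFF, the survival factor of peripheral B cells, and pass the signal to noncanonical NF-κB. They were chosen by gene symbol. The members are Tnfrsf13c, Tnfrsf13b, Tnfrsf17, Traf2, Traf3, Map3k14, Birc3, Nfkb2 and Relb, and each has 1 row among the 22298 genes of the mRNA table. Cells of 4 stages, from pro-B through pre-B and immature to mature B cells, were sorted from the bone marrow of wild type female C57BL/6 mice aged 8 to 10 weeks. Gates were B220+ IgM- CD43+ for pro-B, B220+ IgM- CD43- for pre-B, B220+ IgM+ CD43- for immature B and B220hi IgM+ CD43- for mature B cells. Cells of 3 mice were pooled for each stage, and the 4 rRNA-depleted RNA libraries, 1 per stage, were used. No difference between stages therefore has a replicate check, and no p-value is given.

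Noncanonical NF-κB is held off in resting B cells by a complex of TRAF2, TRAF3 and a cellular inhibitor of apoptosis, which marks the kinase NIK for destruction. When BAFF binds its receptor, TRAF3 is drawn to the receptor and degraded, NIK accumulates, and the NF-κB2 precursor is cut to the short form that enters the nucleus with RelB. BAFF signalling is best known for the survival of transitional and mature B cells and is dispensable for the earlier stages in the marrow.

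The letters of the promoters are shown first, since Nfkb2 is known as a target of NF-κB itself. Its level was lowest in pre-B and highest in mature B cells, and whether the letters bear on this course was not tested. The letters were taken from RefSeq (GRCm38.p6), as 250 bases before and 50 bases from the transcript start on. Of the 9 members, 8 had at least 1 such window. Relb had none, so its promoter was not searched. The windows were searched on both strands for the 10-base NF-κB consensus, and capitals mark matches. A match lay in 8.46% of the 32851 promoters of the table. Of the 10 windows of the members, 4 held a match, 3 of them of Nfkb2 and 1 of Traf3. The upstream Nfkb2 window held 4 matches, counted over both strands and overlapping in 2 stretches, and 3.39% of all promoters held 2 or more. Its palindromic match, read on both strands, lay 39 to 30 bases before the start. The next Nfkb2 window held 2 matches, of which the downstream one lies also in the last Nfkb2 window, which is not printed because it overlaps. The single match of Traf3 ended at the base just before the start. Tnfrsf13c is printed beside them as a receptor gene whose window held none of these letters.
Nfkb2 at chr19:46304487-46304786 (+): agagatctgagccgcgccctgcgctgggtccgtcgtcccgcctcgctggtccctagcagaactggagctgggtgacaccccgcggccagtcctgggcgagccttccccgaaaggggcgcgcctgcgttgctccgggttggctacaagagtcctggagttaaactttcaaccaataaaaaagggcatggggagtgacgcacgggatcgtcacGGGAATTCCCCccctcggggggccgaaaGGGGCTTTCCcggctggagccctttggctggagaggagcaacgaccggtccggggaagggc
Nfkb2 at chr19:46305445-46305744 (+): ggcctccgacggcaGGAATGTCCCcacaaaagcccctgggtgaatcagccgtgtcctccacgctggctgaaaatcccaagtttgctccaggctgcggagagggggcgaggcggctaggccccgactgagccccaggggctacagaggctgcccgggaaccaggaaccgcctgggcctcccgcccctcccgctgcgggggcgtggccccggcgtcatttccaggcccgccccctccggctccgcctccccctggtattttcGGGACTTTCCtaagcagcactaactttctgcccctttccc
Traf3 at chr12:111166120-111166419 (+): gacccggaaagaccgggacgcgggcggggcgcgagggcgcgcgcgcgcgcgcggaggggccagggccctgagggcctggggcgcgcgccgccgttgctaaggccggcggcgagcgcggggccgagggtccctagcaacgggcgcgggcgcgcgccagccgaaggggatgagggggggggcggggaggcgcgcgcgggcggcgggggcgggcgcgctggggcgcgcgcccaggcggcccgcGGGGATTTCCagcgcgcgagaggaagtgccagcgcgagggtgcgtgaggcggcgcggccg
Tnfrsf13c at chr15:82224331-82224630 (-): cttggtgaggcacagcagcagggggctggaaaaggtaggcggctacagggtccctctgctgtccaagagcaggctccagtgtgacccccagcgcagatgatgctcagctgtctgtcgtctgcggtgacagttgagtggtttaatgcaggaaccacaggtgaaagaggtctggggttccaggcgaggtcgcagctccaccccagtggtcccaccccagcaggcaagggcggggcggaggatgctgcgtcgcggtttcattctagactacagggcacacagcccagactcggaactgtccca
A match is a run of letters and was not tested as a binding site.

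The mRNA counts of the libraries differed in depth, with 867920 in pro-B, 240231 in pre-B, 223495 in immature B and 849350 in mature B cells. Levels are given as CPM, the count per 1000000 counts of this total, with exact 95% Poisson intervals that cover counting error only. The intervals take each count as an independent event. The reads were paired-end, and whether both mates of a fragment were counted was not tested. If they were, these intervals and those of the ratios are too narrow. The lncRNA table of the same libraries held 2765507 to 3469757 counts, so that mRNAs made up 23.7% and 23.5% of both tables in pro-B and mature B cells and 6.48% in both pre-B and immature B cells. The deposited FPKM values follow the sum of both tables. Against pro-B cells, the median gene of the pre-B library changed by -0.37 on log2 CPM and by -2.20 on log2 FPKM. From immature to mature B cells it changed by 0.19 and by 2.03. Steps of the members into or out of the pre-B and immature B libraries are therefore given on both scales, while mature B against pro-B cells, the libraries of similar depth and mRNA share, differed little between them (medians -0.19 and -0.18).

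The labelled cells were checked against their markers. The 6 pro-B genes summed to 2321 CPM in pro-B and to 44.7 to 179 in the later stages, with Dntt and Igll1 at 0 there. The 4 pre-B genes went from 1278 over 1066 and 576 to 15.2 CPM from pro-B to mature B cells, so their sum was highest in pro-B cells. Of these, Rag2 and Il2ra were highest in pre-B cells. Rag1 was highest in pro-B cells (918 CPM against 372 in pre-B) and Vpreb3 in immature B cells (456 against 295 in pre-B). The 6 mature B genes went from 836 over 903 and 2153 to 6152 CPM from pro-B to mature B cells. In the same order of stages, the 4 immature B genes had 4337, 7530, 9504 and 5087 CPM. Of these, Ighm, Igkc and Ms4a1 were highest in immature B cells, though Ighm had 7147 CPM in pre-B against 7816 there. Cd93 instead was highest in pro-B cells, at 429 CPM, and had 94.0 in immature B cells. Of the B lineage genes, Pax5 had 844 to 1958 CPM and Cd79a 249 to 680 CPM over the libraries. Ptprc, which encodes CD45 and with it the B220 epitope of the sort, had 290 CPM in pro-B, 39.1 in pre-B, 69.8 in immature B and 676 in mature B cells. Markers of other cells were also present. The 5 NK cell genes gave 256 CPM in the pro-B library against at most 8.95 elsewhere, and the 6 plasmacytoid dendritic cell genes 1032 against at most 386, with Siglech at 0 in pre-B and mature B cells. Of the latter genes, Tcf4 (419 CPM) and Bst2 (298) were the largest in pro-B cells. Siglech, Klk1 and Cox6a2 had at most 4 counts each in the later libraries. The 6 T cell genes gave 62.2 CPM in pro-B cells and 1.18 to 17.9 elsewhere, while Cd3d, Cd3e, Cd3g and Trac had at most 2 counts each in any library. The 8 myeloid genes gave 1070 to 1407 CPM in all libraries with Csf1r at 0, and the 5 erythroid genes 103 to 278. The part of such cells in the members' values was not tested. In bulk libraries, fewer cells that express a gene and less RNA of it per cell cannot be told apart.

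Among the receptors, the BAFF receptor gene Tnfrsf13c had its lowest level in pre-B cells and its highest CPM in immature B cells. Its counts were 108 in pro-B, 15 in pre-B, 83 in immature B and 215 in mature B cells, or 124 CPM (102 to 150), 62.4 (34.9 to 103), 371 (296 to 460) and 253 (220 to 289). The immature B interval overlapped with none of the others. On FPKM the values were 10.2, 1.36, 9.23 and 21.1, so that the pre-B library remained the lowest but the mature B library became the highest. Immature B cells were 5.95-fold above pre-B cells in CPM (exact 95% counting interval 3.41 to 11.1), and this ratio exceeded that of 98.2% of the genes tested in that step.

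Tnfrsf13b encodes TACI, a second receptor for BAFF and APRIL. It had 66, 18, 32 and 138 counts in the same order of stages, or 76.0, 74.9, 143 and 162 CPM. The pro-B and pre-B levels lay within each other's intervals (58.8 to 96.7 and 44.4 to 118), and so did the immature B and mature B levels (97.9 to 202 and 137 to 192). The later pair was thus the higher in CPM, with an interval of the step from pre-B to immature B cells of 1.04-fold to 3.62-fold. On FPKM, with 8.47, 2.56, 7.18 and 18.2, the pre-B value stood below the pro-B value.

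Tnfrsf17 encodes BCMA, the receptor that marks plasma cells. It had 0 counts in all libraries, which allows levels of up to 3.46 CPM in pro-B, 12.5 in pre-B, 13.4 in immature B and 3.53 in mature B cells at the limit of 3 counts. Of the 6 plasma cell genes listed for the check, Sdc1 had 25.9 to 108 CPM, Jchain 7.06 to 43.8 and Slamf7 22.2 to 266. Xbp1 had 69.5 to 233 CPM and Irf4 201 to 499, so these transcripts were found in libraries where Tnfrsf17 was not. Prdm1, the remaining gene, had 0 counts in pre-B and 6 to 9 counts in the other libraries.

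Of the adaptors, Traf3 showed the largest range of CPM across the stages. It encodes the adaptor that brings NIK to its ubiquitin ligase and had 49, 4, 16 and 154 counts, or 56.5 CPM (41.8 to 74.6), 16.7 (4.54 to 42.6), 71.6 (40.9 to 116) and 181 (154 to 212). The mature B level stood above the intervals of all earlier stages. The pre-B value rests on 4 counts, and there FPKM and count part ways. With 0.67 in pre-B and 0.44 in immature B cells, and counting intervals that overlap, FPKM was lower in immature B cells, while CPM was 4.30-fold higher (1.39 to 17.7). The transcript length that count and FPKM imply together was 1609 bases for Traf3 in pre-B cells and 10210 to 10538 bases in the other libraries. For Tnfrsf13c the same calculation gave 2606 to 2973 bases.

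Traf2, whose protein links TRAF3 to the ligase, had 45, 8, 14 and 82 counts, or 51.8, 33.3, 62.6 and 96.5 CPM. The intervals of the first 3 stages overlapped, and the mature B interval (76.8 to 120) overlapped with the one of immature B cells (34.2 to 105). On FPKM, with 3.13, 0.49, 0.91 and 6.08, the pre-B and immature B intervals overlapped with each other and lay below those of pro-B and mature B cells. Birc3 encodes cIAP2, a ubiquitin ligase of the complex. It had 181, 54, 54.9 and 371 counts, or 208 CPM (179 to 241), 225 (169 to 293), 246 (185 to 320) and 437 (393 to 484). The first 3 stages could not be separated by counting error in CPM, and the mature B library stood above them. On FPKM, however, Birc3 had 24.7, 3.52, 6.18 and 46.8, with a 7.02-fold gap between pro-B and pre-B cells. The implied length of Birc3 ranged from 1997 bases in pro-B to 4135 bases in pre-B cells.

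Map3k14, which encodes NIK, had its lowest CPM in pro-B and its highest in mature B cells. Its 42, 14, 18 and 112 counts gave 48.4 CPM (34.9 to 65.4), 58.3 (31.9 to 97.8), 80.5 (47.7 to 127) and 132 (109 to 159). Neighbouring stages overlapped in their CPM intervals, and the ends of the series, pro-B and mature B cells, did not. On FPKM it had 1.84, 0.57, 0.85 and 4.99, and there pro-B and pre-B cells were separated, as were immature and mature B cells, while pre-B and immature B cells overlapped.

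The transcription factor genes took different courses. Nfkb2, which encodes the NF-κB2 precursor, had 151, 14, 42.4 and 265 counts, or 174 CPM (147 to 204), 58.3 (31.9 to 97.8), 190 (135 to 254) and 312 (276 to 352). The pre-B interval lay below all the others and the mature B interval above them, on FPKM as well (9.47, 0.82, 2.90 and 17.6). Relb, which encodes the partner that noncanonical signalling brings into the nucleus, had 39, 22, 31 and 89 counts, or 44.9 CPM (32.0 to 61.4), 91.6 (57.4 to 139), 139 (94.2 to 197) and 105 (84.2 to 129). In CPM it was lowest in pro-B cells and did not dip in pre-B cells, while on FPKM (3.35, 1.74, 2.68 and 8.29) the pre-B library was the lowest. The ratio of Nfkb2 to Relb counts, which no scaling of the libraries changes and which was chosen after their values were seen, was 3.87 in pro-B, 0.636 in pre-B, 1.37 in immature B and 2.97 in mature B cells. The exact 95% counting interval of this ratio was 0.301 to 1.3 in pre-B cells, which includes equal counts and lies below the intervals of pro-B (2.71 to 5.66) and mature B cells (2.33 to 3.83). In immature B cells it was 0.832 to 2.23.

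**Figure D1:**
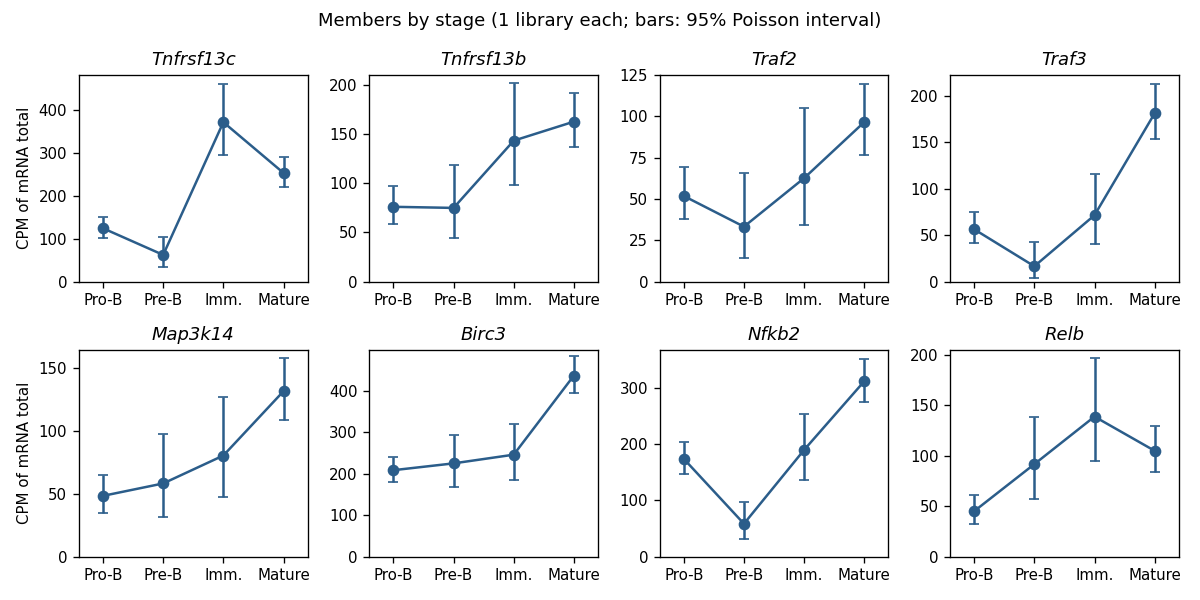
CPM of the mRNA total (vertical axis, from 0) for the 8 members with counts, in pro-B, pre-B, immature B (Imm.) and mature B cells, 1 library each, with exact 95% Poisson intervals as bars. Tnfrsf13c peaks in immature B cells at 371 CPM, Nfkb2 and Traf3 are lowest in pre-B cells, and Birc3 stays between 208 and 246 CPM until it reaches 437 in mature B cells.

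Levels of different members were compared on FPKM, which is scaled by transcript length. Birc3 was the highest in pro-B (24.7), pre-B (3.52) and mature B cells (46.8), and Tnfrsf13c in immature B cells (9.23). In mature B cells the order went on with Tnfrsf13c (21.1), Tnfrsf13b (18.2), Nfkb2 (17.6), Relb (8.29), Traf2 (6.08), Map3k14 (4.99) and Traf3 (4.16). Between neighbours, only the steps from Birc3 to Tnfrsf13c and from Nfkb2 to Relb were larger than the counting intervals there. In pro-B cells the same held for the steps from Birc3 to Tnfrsf13c (10.2) and from Tnfrsf13b (8.47) to Relb (3.35). In pre-B cells no neighbours in the order were separated. In immature B cells both receptors and Birc3 (6.18 to 9.23) formed a group above Nfkb2 and Relb (2.90 and 2.68), and Traf2, Map3k14 and Traf3 (0.91 to 0.44) lay below these. In mature B cells 8013 genes reached FPKM 1, and of these Tnfrsf13c stood above 93.4% and Nfkb2 above 91.8%, and in the pre-B library Tnfrsf13c stood above 22.4% of 4110 such genes.

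Pairs of libraries were then compared to ask which members differed at each transition. A gene with at least 10 counts in 1 or both libraries was tested, and it was called at a CPM ratio of 2-fold or more. Tnfrsf17 was never tested. All comparisons share libraries with each other, so they are not independent.

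Between pro-B and mature B cells, all 8 tested members were higher in mature B cells, under every scaling that was tried. Of these, 6 were called, namely Traf3 (3.21-fold, exact 95% counting interval 2.31 to 4.52), Map3k14 (2.72-fold, 1.90 to 3.98), Relb (2.33-fold, 1.58 to 3.49), Tnfrsf13b (2.14-fold, 1.58 to 2.91), Birc3 (2.1-fold, 1.75 to 2.52) and Tnfrsf13c (2.03-fold, 1.61 to 2.59). Traf2 (1.86-fold, 1.28 to 2.74) and Nfkb2 (1.79-fold, 1.46 to 2.2) stayed under the threshold, with intervals above 1. Of the 9634 genes tested, 13.2% were called higher and 24.2% lower. The median log2 ratio was 1.08 over the members and -0.19 over all tested genes, and the members' values lay above those of 84.7% (Nfkb2) to 93.6% (Traf3) of the genes. On FPKM the 8 members were again higher, and 5 of them reached 2-fold where 15.0% of the genes did, with 25.5% lower. Birc3 was under the threshold there, with a log2 ratio of 0.92.

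Between pro-B and pre-B cells, Traf3 (3.39-fold lower) and Nfkb2 (2.98-fold lower) were called lower and Relb (2.04-fold, 1.15 to 3.52) higher in CPM. These are 2 of 8 members lower and 1 of 8 higher, where 29.2% and 14.8% of 9152 genes were called, so these counts were near the background. With median-of-ratios size factors the same members were called, and the split over all genes was 21.4% lower and 19.1% higher. Tnfrsf13c just missed the threshold, at 1.99-fold lower. On FPKM, 6 members were lower, none was higher and Relb turned to a log2 ratio of -0.95, where 81.4% of the genes were called lower and 2.56% higher. Map3k14 and Birc3, with log2 ratios of 0.27 and 0.11 in CPM, were likewise lower on FPKM (-1.69 and -2.81). Less the median gene of each scale, the log2 ratio of Relb was 1.40 in CPM and 1.26 on FPKM, and that of Nfkb2 was -1.21 and -1.33. Traf3 changed sides, with -1.39 in CPM and 1.23 on FPKM, and its pre-B value is the one that rests on 4 counts.

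From pre-B to immature B cells, all 8 members had a higher CPM, and Tnfrsf13c (5.95-fold), Traf3 (4.30-fold) and Nfkb2 (3.25-fold, 1.73 to 6.39) were called. None was called lower. Over 5838 genes, 18.9% were called higher and 20.2% lower, and the median log2 ratio was 0.92 over the members against -0.02 over all genes. These libraries had the same share of mRNA, and on FPKM Tnfrsf13c, Nfkb2 and Tnfrsf13b were the 3 called higher, with 22.0% of all genes higher and 21.9% lower. Traf3 went the other way there, with a log2 ratio of -0.61. For Traf2, Map3k14, Birc3 and Relb the counting interval of the CPM ratio included 1.

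From immature to mature B cells, Traf3 alone was called in CPM (2.53-fold higher, 1.51 to 4.54), and no member was called lower, where 24.2% of 8363 genes were called higher and 18.1% lower. Birc3 (1.78-fold, 1.33 to 2.40) and Nfkb2 (1.64-fold, 1.20 to 2.36) were higher with intervals above 1. Tnfrsf13c was 1.47-fold lower in mature B cells in CPM, with a log2 ratio of -0.55 (-0.92 to -0.17), but 1.19 higher on log2 FPKM. Relb also turned, from -0.40 (-1.01 to 0.23) to 1.63. Less the median gene of each scale, both were below it on either scale, Tnfrsf13c by -0.74 and -0.83 and Relb by -0.59 and -0.40. On FPKM all 8 members were called higher, as were 77.3% of the genes, with 3.35% lower.

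**Figure D2:**
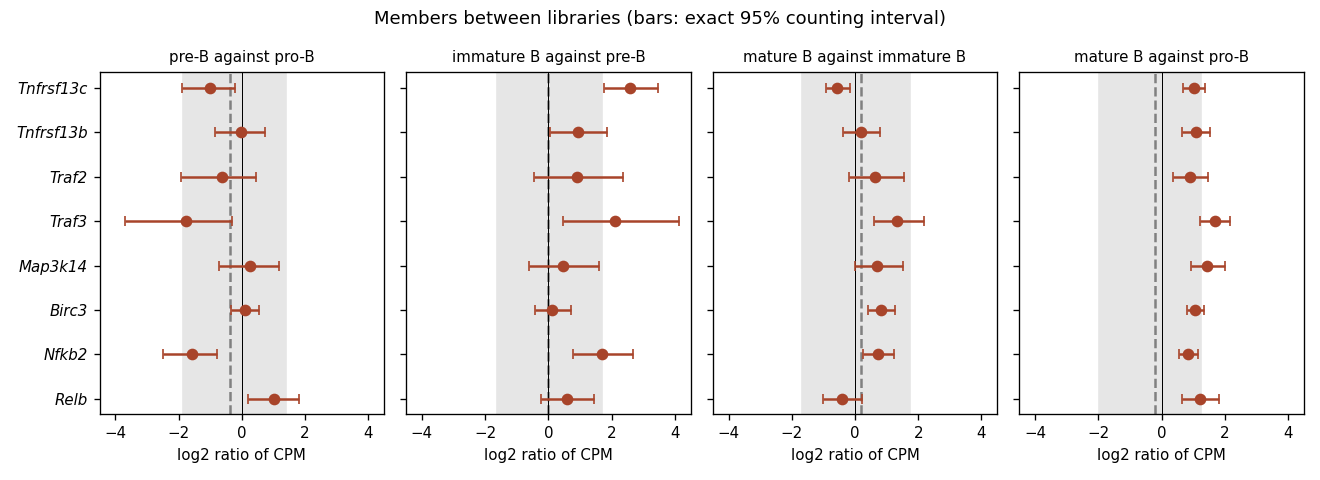
Log2 ratio of CPM (horizontal axis) of the 8 tested members in the 4 comparisons, with exact 95% counting intervals as bars. The dashed line is the median of all tested genes and the grey band spans their 10th to 90th percentile. All members lie to the right of 0 in mature B against pro-B cells, with Traf3 and Map3k14 beyond the band, and Tnfrsf13c, Traf3 and Nfkb2 lie beyond it in immature B against pre-B cells.

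**Figure D3:**
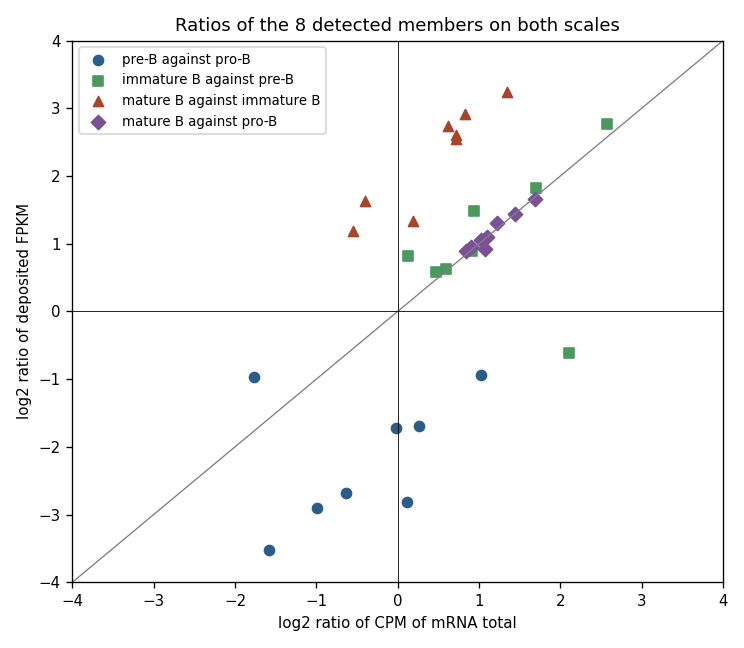
Log2 ratio on deposited FPKM (vertical axis) against the log2 ratio of CPM (horizontal axis) for the 8 tested members in each comparison, with the line of equality in grey. Mature B against pro-B ratios lie near the line, pre-B against pro-B ratios are lower on FPKM apart from Traf3, and mature B against immature B ratios are all higher on FPKM.

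Transcript length moved with the difference between the libraries. Among genes with an implied length under 2000 bases the median log2 CPM ratio of pre-B against pro-B cells was 0.07, and it was -0.36 at 2000 to 4000 bases, -0.60 at 4000 to 8000 bases and -0.81 at 8000 bases or more. From immature to mature B cells the medians were -0.19, 0.16, 0.42 and 0.59. Traf3 belongs to the longest class and Nfkb2 and Map3k14 to the one before. With the median of its class taken off, the pre-B against pro-B log2 ratio was -0.95 for Traf3 and -0.97 for Nfkb2, and that of Traf3 in mature B against immature B cells was 0.76, so that none of these was called any more. In mature B against pro-B cells, where the class medians ran from -0.31 to -0.06, the 8 members all reached 2-fold after this step.

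To place the members in their pathway, 55 further genes were grouped into 4 lists, of which 44 had at least 10 counts in some library. Mature B cells were compared with pro-B cells, where 13.2% of all tested genes were called higher and 24.2% lower, with a median log2 ratio of -0.19. The ligand genes of BAFF (Tnfsf13b) and APRIL (Tnfsf13) had 0 counts in both, and BAFF had 2 counts in each of the other libraries. Among 4 tested genes of the ligands and sister receptors, 2 were called higher and none lower (median log2 ratio 0.95), too few genes to set against the shares over all genes. Ltb, a subunit of lymphotoxin, had 33.4 CPM in pro-B, 8.33 in pre-B, 98.4 in immature B and 194 in mature B cells, a 5.81-fold difference between first and last (3.90 to 8.95). On FPKM, with 5.4, 0.38, 3.9 and 26.9, its immature B level was below that of pro-B cells. Cd40, the receptor for T-cell help, had 10 and 41 counts in pro-B and mature B cells (4.19-fold, 2.06 to 9.38), but 4.94 and 6.95 on FPKM.

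Of 10 tested adaptors and ubiquitin enzymes, 1 was higher and 2 were lower (median -0.20), which is near the shares of 13.2% and 24.2% over all genes. Traf5, a relative of Traf2 and Traf3, went from 6 counts in pro-B to 79 in mature B cells (13.5-fold, 5.91 to 37.8). Traf6, the adaptor of Toll-like and CD40 signalling, was 2.35-fold lower (1.88 to 2.95), at 318 and 135 CPM. Birc2 encodes cIAP1, the relative of cIAP2, and had 82.3, 10, 2.07 and 3 counts from pro-B to mature B cells, a ratio of 0.0372 in mature B over pro-B cells (0.00755 to 0.113), with FPKM of 7.97, 0.56, 0.13 and 1.5. Between pro-B and mature B cells it was lower on both scales, but by unlike amounts, with log2 ratios of -4.75 in CPM and -2.41 on FPKM. Its mature B value rests on 3 counts. Birc3 was higher, with 181 and 371 counts and 24.7 and 46.8 FPKM. Since the genes are related in sequence, reads shared between them could be assigned to either, which was not tested.

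Of the 14 kinases and NF-κB partners, 4 were higher and 2 lower (median 0.51), beside 13.2% and 24.2% of all genes. Rel, the c-Rel subunit, had 478, 275, 548 and 1367 CPM from pro-B to mature B stage (2.86-fold, 2.55 to 3.21, between the ends). On FPKM it had 10.2, 1.54, 3.12 and 29.4, so that the order of pro-B and immature B cells turned. Ikbkb, which encodes the kinase of the canonical arm, was 2.01-fold higher (1.59 to 2.55). Nfkbib and Bcl3 were called on 17 and 35 and on 15 and 30 counts, with intervals that began at 1.15 and 1.07. On FPKM Nfkbib had 1.87 in pro-B and 3.87 in mature B cells. Bcl3 had 2.67 and 3.39 there, a log2 ratio of 0.34, which is under the threshold. The 2 lower genes, Nfkbie and Ikbke, had at most 20 counts in any library.

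The last list holds 17 genes known to depend on BAFF or on noncanonical NF-κB, of which 16 were tested, 10 were called higher and 3 lower, beside 13.2% and 24.2% of all genes (median 2.04 against -0.19 over all genes, with genes at 0 in pro-B cells set to 3 counts). Among the higher ones Bcl2a1b, with 0 and 12.8 counts, is uncertain, since near-identical copies of it exist. Fcer2a (CD23) and Cr2 (CD21), which are also among the mature B markers of the check, had 0 and 12 counts in pro-B and 358 and 261 in mature B cells. Cr2 was 22.2-fold higher (12.5 to 43.6). With pro-B cells set to the limit of 3 counts, Fcer2a was at least 122-fold higher, and the counting interval of that ratio began at 98.7-fold. Cxcr5, the receptor that leads B cells into follicles, had 0 counts in the 3 earlier stages and was at least 61.4-fold higher on the same limit, with an interval from 49.4-fold. Icosl, the ligand of ICOS, had 5 and 116 counts (23.8-fold, 9.87 to 74.4) and Cd74, the invariant chain, had 516 and 7482 CPM. The survival and death genes of the list went both ways. Bcl2, a survival gene named here after its value was seen, had 34.6 and 131 CPM (3.78-fold higher, 2.51 to 5.86). The 3 genes called lower were Bcl2l1, Pim1 and Bcl2l11. Bcl2l1, which encodes the survival factor BCL-XL, had 101 and 7.06 CPM, the kinase gene Pim1 267 and 84.0, and Bcl2l11, which encodes the death factor BIM, 209 and 103.

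**Figure D4:**
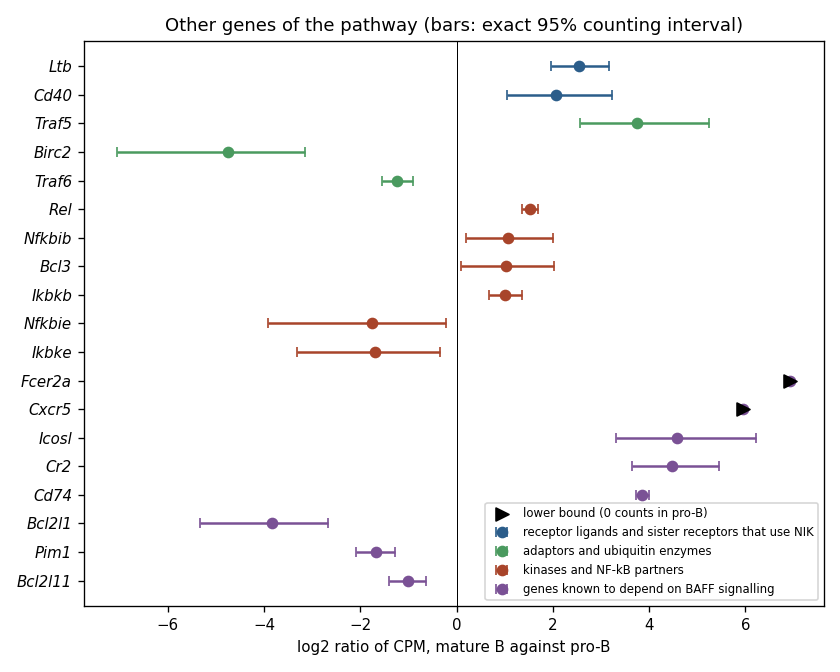
Log2 ratio of CPM in mature B against pro-B cells (horizontal axis) for the genes of the 4 lists that passed 2-fold with an interval excluding 1, at most 5 per list and direction, coloured by list, with exact 95% counting intervals as bars. Arrowheads mark Fcer2a and Cxcr5, whose 0 counts in pro-B cells were set to 3 and whose intervals have no upper end, while Birc2 and Bcl2l1 lie farthest to the left.

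The genes nearest in course to Tnfrsf13c and to Nfkb2 were ranked by the distance between centred log2(CPM + 1) values over the 4 libraries, among 4737 genes with at least 100 counts in all. Nearest to Tnfrsf13c were Surf6 (distance 0.205), Paip2b, Sik2, Cd52 and Cacna1d, which all had their lowest level in pre-B and their highest in immature B cells. Surf6 had 28.8, 16.7, 85.0 and 62.4 CPM. Nearest to Nfkb2 were Pag1 (0.150), Csnk1g3, Ttc7, Rrn3 and Abhd17b. Pag1 had 186, 58.3, 183 and 344 CPM, close to the Nfkb2 values at every stage. With 4 points and few counts in pre-B cells, this is a description of shape only. Among the members, Nfkb2 was the closest to Tnfrsf13c, at rank 128, and Traf3 the closest to Nfkb2, at rank 175, while Relb ranked 2556 from Nfkb2.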

How the data were processed

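Of the 8 samples of the series, the 4 rRNA-depleted RNA libraries were used, grouped by the stage in their titles. The authors cleaned reads with fastp 0.18.0, removed rRNA with Bowtie2 2.2.8, mapped with HISAT2 2.1.0 in strand-specific mode and quantified with StringTie 1.3.4. The submitters' processing notes also name mm9 and Bowtie 0.12.2, and the build of the mRNA table is not settled by the sources. Estimated counts, deposited by the authors without normalization, stand in an mRNA and a lncRNA table beside FPKM values, which the authors scaled by length and mapped fragments. The circRNA table, with deposited counts of back-spliced reads and RPM values, listed 0 circRNAs with a member as host.

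From the counts, CPM of the column total, exact Poisson intervals and exact conditional binomial (Clopper-Pearson) intervals of ratios at 95% were computed on counts rounded to whole numbers, with Python 3.11.15 and scipy 1.17.1. A count under 3 was set to 3 in ratios. Alternatives used edgeR 4.0.16 (TMM) and DESeq2 1.42.0 (median-of-ratios size factors), without their tests. Intervals were tested only on simulated Poisson counts without other spread, which cannot show how they hold for estimated counts. No molecular identifiers are described, so intervals cover counting error only, with each count taken as an independent event. If both mates of a fragment were counted, which was not tested, the intervals are too narrow. Implied lengths are the count divided by FPKM and by the total of both tables.

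The study's own test between single libraries was not repeated, and its 2-fold threshold was kept. The members, lists and rules were chosen with earlier results of these data known. Named genes are the 9 members, the pathway genes that passed 2-fold with an interval excluding 1 between mature B and pro-B cells (at most 5 per list and direction), and the 5 genes nearest to Tnfrsf13c and to Nfkb2 in course. Markers and ligands named with their values fall outside this rule. The summed level of the B lineage markers is not reported here.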

Additional observations from a re-analysis of the deposited data

Results flagged for a closer look

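The lncRNA table, which the comparisons did not use, held 10 transcripts under the symbols of the members, and 3 of them had more counts than the limit of 3 in some library. For Tnfrsf13b, ENSMUST00000137832 had 9.91 counts in pro-B, 7.40 in pre-B, 13.08 in immature B and 0 in mature B cells, while the gene's mRNA row was highest in mature B cells. The other Tnfrsf13b transcript, ENSMUST00000130708, had 3.07 counts in pro-B, 0 in pre-B, 4.48 in immature B and 9.16 in mature B cells. For Birc3, ENSMUST00000161099 had 12.00 counts in pro-B, 0 in pre-B and immature B and 24.00 in mature B cells, against 181 and 371 counts of the mRNA row in pro-B and mature B cells. How reads were divided between coding and other transcripts of a gene was not tested.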

How the results depend on the processing

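No paired analysis was possible because each stage has 1 RNA library. With TMM sizes, with size factors and without immunoglobulin rows, the 32 ratios of the members stayed within their counting intervals, and 31, 31 and 32 kept their sign. On FPKM and on CPM of both tables summed, 26 and 27 kept it, and Relb in pre-B against pro-B cells reversed to -0.95 and -0.84, as did Traf3 in immature B against pre-B cells to -0.61 on FPKM. In pre-B against pro-B cells the members called lower numbered 2 in CPM, 6 on FPKM and 7 on CPM of the summed tables, and those called higher 1, 0 and 0. In mature B against immature B cells 1 was called higher in CPM and 8 on each of the other scales. In mature B against pro-B cells 6 were called in CPM, 7 with TMM, 8 with size factors and 5 on FPKM. At 4-fold, no member was called lower or higher (0) in pre-B against pro-B, and 0 higher in mature B against immature B and in mature B against pro-B cells, since no ratio was that large, while in immature B against pre-B cells 2 remained. With at least 50 counts, fewer members were tested, and 0 were higher and 1 lower in pre-B against pro-B and 1 higher in immature B against pre-B cells. Less the median of the length class, an alternative added with the values known, 0 were lower in pre-B against pro-B and 0 higher in mature B against immature B cells. The scale of summed tables and the addition of the lncRNA rows were added in the same way. With those rows, 4 were called in immature B against pre-B cells, Tnfrsf13b among them, and 5 in mature B against pro-B cells, without Tnfrsf13b. Over all genes, pre-B against pro-B calls went from 1359 higher and 2669 lower in CPM to 234 and 7452 on FPKM, to 214 and 7644 on the summed tables, to 4940 and 2669 without the filter, which sets low counts to 3, and to 1592 lower less the class median. Mature B against immature B calls went from 2027 and 1514 to 6463 and 280, 6669 and 271, and 2027 and 5299, and immature B against pre-B calls higher from 1104 to 1726 without the filter. At 4-fold the calls in one direction numbered 289 to 923 and at 50 counts 108 to 1672. Depth limits the pre-B and immature B libraries most, where 1 count is 4.16 and 4.47 CPM and a 2-fold difference of Traf2 lies within the counting interval.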
